A study of Arabidopsis thaliana with 8 samples.

Results

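The base of the inflorescence stem was compared with its tip in the cov mutant of Arabidopsis thaliana, with 2 arrays of stem base and 2 arrays of stem tip, which are 4 of the 8 arrays of a study on COV and vascular patterning. All probe sets of the deposited table entered the comparison, which follows the change in transcript level from young to mature stem tissue in the mutant. Total RNA was hybridised to Affymetrix ATH1 arrays, which measure each transcript with a set of short probes. The other 4 arrays hold base and tip of wild type Ler-0 stems, 2 of each, and they served to test whether a change in cov differed from that in wild type. Plants of both genotypes were at developmental stage 6.10 and grew on compost at 22 degrees, 65% humidity and 24 hours of light, and both received the insecticide Intercept. The labels name the mutant only as cov, without the allele or its genetic background.

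An Arabidopsis inflorescence stem grows at its apex and matures downward. Near the tip, cells divide and elongate, and young flowers and their stalks are formed. Toward the base, elongation ends and the xylem vessels and interfascicular fibres lay down thick secondary walls of cellulose, xylan and lignin. COV1 encodes a membrane protein, and loss of its function is known for extra vascular tissue in the stem in place of the normal spacing between bundles. COV1 and its relatives had no named probe set in the annotation used here, so the genotype was not checked against the targeted gene.

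The median signal was 47.9 and 46.6 on the cov base arrays and 50.1 and 49.5 on the cov tip arrays. On the wild type arrays it was 41.4 and 46.4 at the base and 48.2 and 49.2 at the tip. Across the 15923 tested probe sets the pair of cov base arrays correlated at r = 0.959 and the pair of cov tip arrays at 0.978, while base and tip arrays correlated at 0.779 to 0.823. A control of RNA integrity was the log2 signal of the 3' minus the 5' probe set of actin. In cov it was 2.11 and 2.32 at the base and 2.15 and 2.42 at the tip, the same range in both. In wild type it was 2.17 and 2.48 at the base and 2.73 and 2.62 at the tip. There both tip values lay above the base values. The stem markers that could be read agreed in direction with the labelled positions. The summed signal of the xylem and fibre markers GUT2, IRX15 and IRX15-L, 3 of a list of 12, was 1235 and 1759 at the base and 225 and 228 at the tip. AUR1 was the 1 of 10 markers of dividing tissue with a named probe set. It had 61.5 and 82.2 at the base and 222 and 216 at the tip. In bulk samples fewer cells of a type and less RNA per cell cannot be told apart. PYK10, the 1 readable marker of 6 for root, stayed at 23.6 and 25.8 at the base and 26.4 and 21.5 at the tip. The leaf markers MUTE and SPCH, 2 of 6, summed to 14.4 and 2.7 at the base and 5.9 and 6.6 at the tip. None of the 13 markers of flower organs and pollen and none of the 4 of seed was found under its listed name. Markers were looked up by current gene name only, so one annotated by its locus number would be missed. The presence of floral tissue in the tip samples was therefore not tested with these lists.

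Base and tip of the cov stem differed widely. Of the 15923 probe sets tested, 2455 (15.4%) were higher at the base and 2523 (15.8%) were lower there (limma, Benjamini-Hochberg adjusted p under 0.05). Together these were 31.3% of the tested probe sets, and 6498 passed an unadjusted p under 0.05. The change ran further toward the tip. At 2-fold or more, 1106 probe sets were higher and 1264 lower at the base, but at 8-fold or more the counts were 28 higher and 106 lower, and at 32-fold or more 0 higher and 21 lower. A signal below 21.36 on both tip arrays was found for 156 of the probe sets higher at the base, and a signal below it on both base arrays for 374 of those lower at the base. Of these, 3 reached 200 on both base arrays and 37 reached 200 on both tip arrays. The counts depended on single cov arrays. Both fell when any 1 cov array was left out, base or tip, and fell most without cov tip array 1. The labels do not say whether the 2 arrays of a group came from separate plants, so the p-values measure only the spread between these samples, which may be technical.

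**Figure D1:**
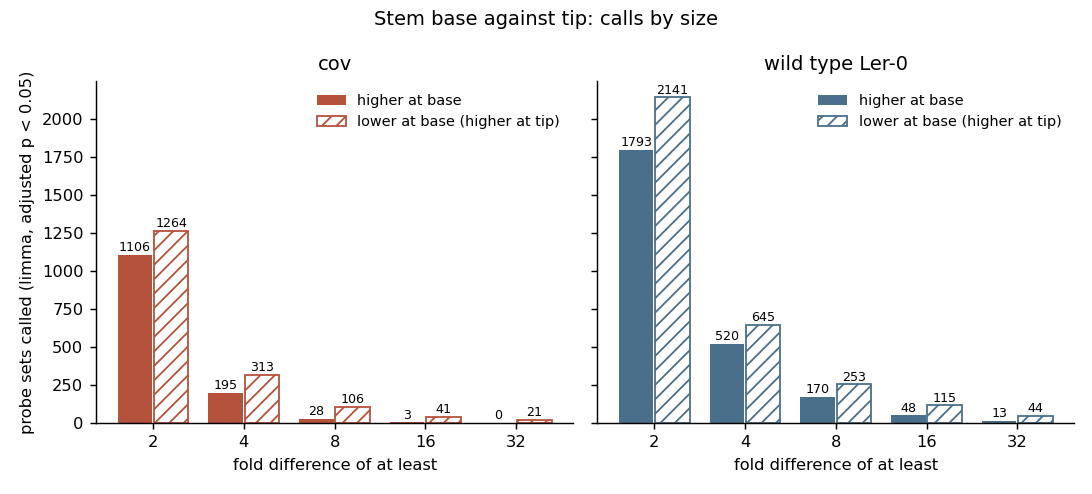
Number of probe sets past the threshold by size of the difference between base and tip (x axis, minimum fold on the log2(signal + pseudocount) scale), in cov on the left and wild type on the right. Filled bars count probe sets higher at the base and hatched bars those lower at the base. In cov no probe set was 32-fold or more higher at the base and 21 were lower by that much.

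The 15 genes most raised at the cov base had log2 differences of 2.86 to 4.28, and all 15 changed the same way in wild type. AT3G45160 led, with a signal of 1023 and 920 at the base and 39.4 and 37.8 at the tip, a difference of 4.28 ± 0.16 on the log2 scale (standard error, 2 arrays per group, as for all errors given here; adjusted p = 5.31e-08). AT1G22480 followed at 997 and 1162 against 58.1 and 89.5 at the tip, and AT1G67865 had 2241 and 2107 at the base and 258 and 264 at the tip. Only 4 of the 15 carry a name in the annotation used here. AT3G23090, which is WDL3 of a family of proteins that bind microtubules, had 248 and 289 at the base and 10.3 and 12.8 at the tip. IRX15 and the pectin methylesterase gene PME61, also named PME35, are described with the cell wall. ZCF37 differed between its base arrays, at 228 and 56.3, against 5.1 and 5.3 at the tip. The base arrays of every one of these 15 genes lay above the tip arrays. This held for 34.1% of all tested probe sets, and genes chosen for a large change had to show it more often. The other genes, in falling order, were AT4G28380, AT5G18470, AT1G64360, AT2G31930, AT1G13470, AT1G19960, AT1G67860 and AT1G11210.

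The 15 genes most reduced at the cov base had log2 differences of -6.83 to -4.38, and all 15 changed the same way in wild type. AT1G66850 had 15.8 and 18.3 at the base and 3393 and 3148 at the tip, a difference of -6.83 ± 0.21 (adjusted p = 1.88e-08). AT1G68875 was at 0.6 and 0.7 at the base and at 1113 and 1086 at the tip. The only one with a name, ATA27, encodes beta-glucosidase 20. Its signal was 2.7 and 0.8 at the base and 1138 and 1177 at the tip, a difference of -6.43 ± 0.18. AT5G62080, AT5G07230, AT2G20870, AT3G52130, AT5G22430, AT5G33370, AT2G03850, AT1G33430, AT2G03740, AT5G45670, AT5G16920 and AT4G37900 followed. The highest base signal among all 15 was 43.5, in AT5G33370, and the lowest tip signal was 303, in AT5G45670. The tip arrays of each lay above its base arrays, as they did for 34.9% of all tested probe sets.

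Because few of these genes have names, the 20 most raised and 20 most reduced genes with a name were also taken, a choice made after their values were seen. At the base, GAMMA-VPE, a vacuolar protease that processes and degrades vacuolar proteins, had 1974 and 2141 against 314 and 382 at the tip, 2.53 ± 0.17 on the log2 scale (adjusted p = 2.2e-06). The serine carboxypeptidase-like gene scpl31 had 482 and 251 at the base and 43.2 and 38.5 at the tip. GRX480, a glutaredoxin that binds TGA transcription factors, had 381 and 275 at the base and 35.6 and 43.5 at the tip. APS4, an ATP sulfurylase of sulfate assimilation, had 782 and 952 at the base and 145 and 168 at the tip. The glutamate receptor-like gene GLR2.7 and the MYB-type gene MYBC1 were below 5 on both tip arrays, with 70.9 and 48.5 and with 47.2 and 44.8 at the base. Among the most reduced, EXO (EXORDIUM), which promotes growth downstream of brassinosteroids, had 65.6 and 47.8 at the base and 1006 and 709 at the tip, a difference of -3.66 ± 0.20 (adjusted p = 7.8e-07). GH9B13, of the glycosyl hydrolase 9 family that cuts beta-glucans, had 52.6 and 78.5 at the base and 592 and 600 at the tip. The small defensin-like peptide gene LCR69, also PDF2.2, had 213 and 193 at the base and 2791 and 2559 at the tip. BSMT1, which methylates salicylic and benzoic acid, CHIL, which aids flavonoid synthesis, and BPEp (BIG PETAL), a regulator of petal size, were all below 10 on both base arrays and at 52 to 192 on the tip arrays.

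**Figure D2:**
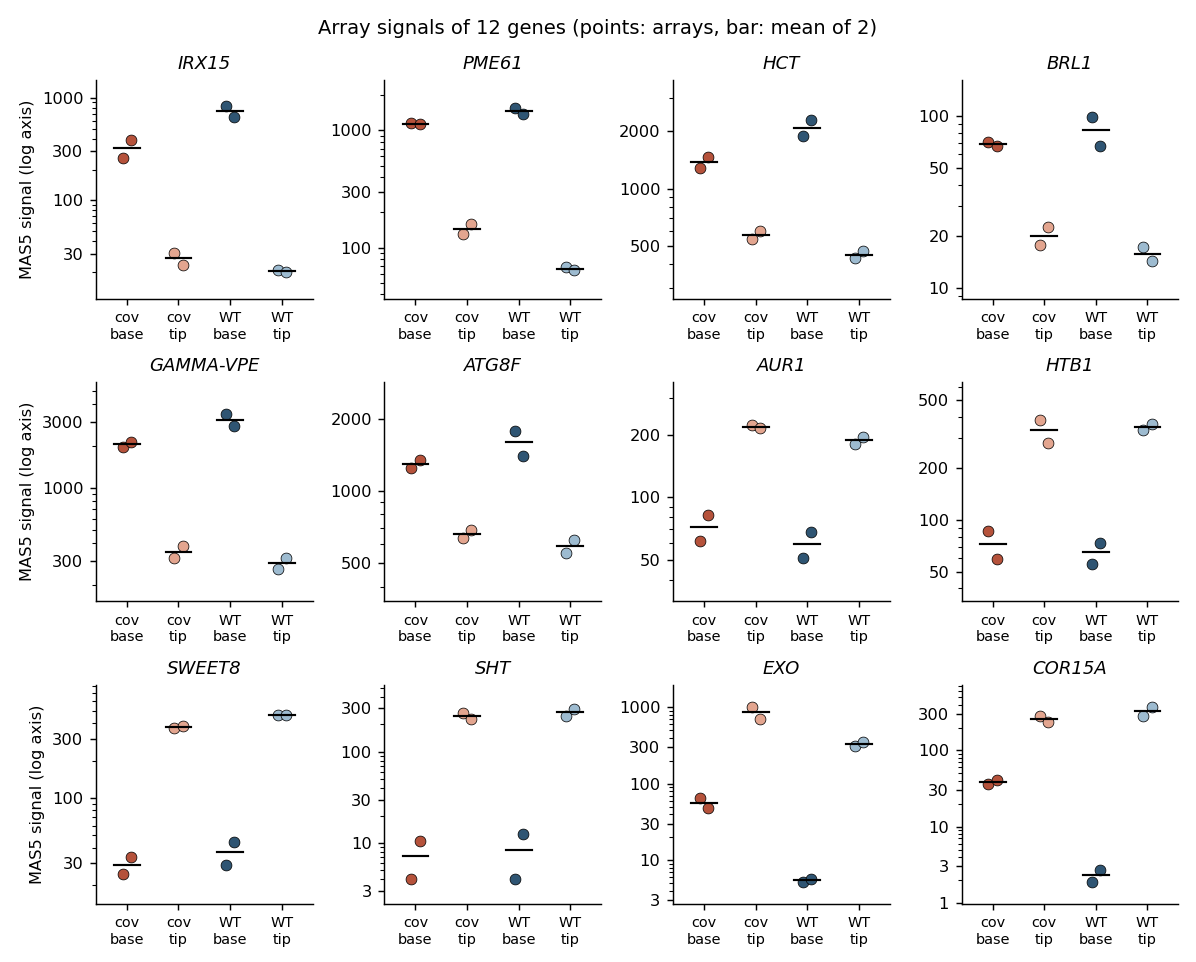
MAS5 signal on each array (log axes, own range in each panel) of 12 genes in cov base, cov tip, wild type base and wild type tip; points are arrays and bars the mean of 2. The upper row and the first 2 panels of the middle row are higher at the base, the others higher at the tip. All 12 genes were called in cov, and their cov base and tip arrays do not overlap. Over all tested probe sets the cov base arrays lay above the tip arrays for 34.1% and below them for 34.9%.

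IRX15 and IRX15-L are needed for normal xylan in secondary walls, and GUT2 (IRX10) and GUT1 extend the xylan backbone. In cov 3 of the 4 tested genes were higher at the base and 0 lower, with a list median of 2.4 on the log2 scale, against a median of -0.002 over all tested probe sets. The counts of this and the following lists stand against 15.4% higher and 15.8% lower over all tested probe sets. IRX15 had 260 and 385 at the base and 31.1 and 23.6 at the tip, 3.07 ± 0.21 (adjusted p = 3.17e-06). GUT2 had 516 and 790 at the base and 97.9 and 107 at the tip, 2.51 ± 0.20. IRX15-L had 459 and 585 at the base and 95.9 and 97.5 at the tip, 2.29 ± 0.18. GUT1, with 181 and 202 at the base and 186 and 151 at the tip, did not pass the test (0.18 ± 0.18, adjusted p = 0.509). Its arrays overlapped, unlike those of the other 3. Of the genes listed for primary walls, COB (COBRA, needed for ordered cellulose) and the cellulose synthase-like genes CSLC6, CSLC12 and CSLD2, 0 of 4 passed, with a median of 0.06. COB had 581 and 634 at the base and 572 and 526 at the tip.

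Of the lignin genes, 4 of 5 tested were higher at the base and 0 lower, with a median of 1.25. HCT, which leads the phenylpropanoid pathway toward monolignols, had 1282 and 1473 at the base and 547 and 598 at the tip (1.25 ± 0.15, adjusted p = 0.000145). BGLU45, a glucosidase that frees monolignols from their glucosides, had 316 and 313 at the base and 84.5 and 106 at the tip (1.61 ± 0.18). Its relative BGLU46 had 77.9 and 130 at the base and 33.0 and 30.4 at the tip. PRX52, a peroxidase of lignin assembly, had 88.5 and 99.9 at the base and 30.9 and 41.8 at the tip, and the call did not hold when leaving out cov tip array 1 (adjusted p = 0.0659). UGT72E2, which attaches glucose to monolignols, did not pass at 30.6 and 30.1 at the base and 37.2 and 43.6 at the tip. Of the 4 listed peroxidase genes 2 were higher and 0 lower, namely PRX52 and PRXR1. PRXR1 had 3940 and 4979 at the base and 2460 and 2021 at the tip. AT5G64120 (PRX71), with 96.5 and 68.9 at the base and 114 and 103 at the tip, and AT2G41480 (PRX25), with 6.0 and 39.6 at the base and 13.6 and 21.0 at the tip, did not pass.

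Pectin genes and the TBL family held genes called in each direction. Pectin methylesterases remove methyl groups from pectin and so alter wall stiffness. Of 4 listed pectin genes 3 were higher at the base and 1 lower. PME61, known for a part in the firmness of stem fibres, had 1148 and 1140 at the base and 131 and 161 at the tip (2.88 ± 0.15, adjusted p = 4.76e-07). PMEPCRF had 868 and 819 at the base and 300 and 332 at the tip, whereas ATPMEPCRB (PME41) had 21.4 and 29.3 at the base and 221 and 188 at the tip (-2.54 ± 0.21). GAUT15, of the galacturonosyltransferase family, passed narrowly at 177 and 195 against 108 and 114 (0.69 ± 0.23, adjusted p = 0.0427), and its call was lost without any 1 of the cov arrays or of the wild type base arrays, with adjusted p up to 0.176 without cov tip array 1. In the TBL family, whose studied members acetylate wall polysaccharides, 5 of 13 were higher and 3 lower, with a median of 0.07. The higher count was 3 or 2 when cov base array 1 or 2 was omitted, and 1 or 2 for cov tip array 1 or 2. TBL36 had 695 and 829 at the base and 109 and 125 at the tip (2.58 ± 0.17). TBL26, at 43.6 and 66.8 at the base and 263 and 225 at the tip, and TBL39, at 59.5 and 96.6 at the base and 354 and 292 at the tip, ran the other way. TBL37 and TBL34 were higher at the base by 0.73 ± 0.20 and 0.69 ± 0.21, and both calls were lost without cov tip array 1 (adjusted p = 0.133 and 0.0727) or cov base array 2 (0.0856 and 0.122). The call of TBL34 was also lost without cov base array 1 (0.0576) or cov tip array 2 (0.174).

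**Figure D3:**
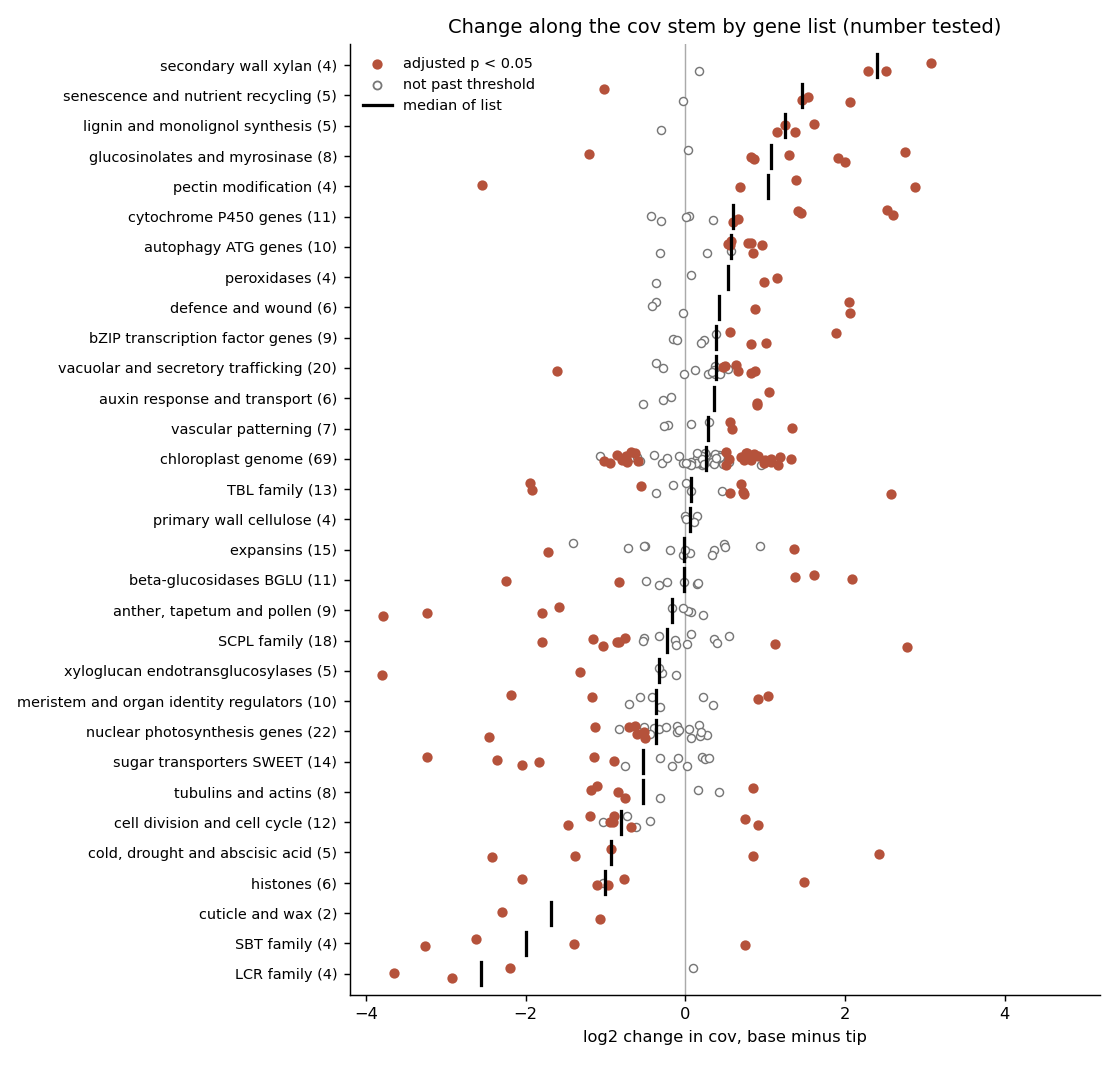
Log2 difference of base minus tip in cov (x axis) for every tested gene of each list described, ordered by the list's median (black bar), with the number tested in brackets. Filled points passed limma's adjusted p of 0.05 and open points did not. The xylan list lies highest and the LCR family lowest, and most lists hold genes on both sides of 0.

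Of 7 tested regulators of vascular patterning 3 were higher at the base and 0 lower, with a median of 0.29, against 15.4% higher over all tested probe sets. The count was 1 when cov base array 2 or cov tip array 1 was omitted. BRL1, a brassinosteroid receptor of vascular cells, had 70.3 and 67.2 at the base and 17.7 and 22.7 at the tip (1.33 ± 0.23, adjusted p = 0.00122). CLE41, which encodes the phloem peptide that keeps the cambium dividing, had 278 and 332 at the base and 180 and 217 at the tip (0.59 ± 0.17, adjusted p = 0.019). MOL1, a receptor kinase that limits cambium activity, had 89.3 and 119 at the base and 69.1 and 62.5 at the tip (0.57 ± 0.18, adjusted p = 0.0375). Both of these calls were lost without cov base array 2 (adjusted p = 0.116 for CLE41 and 0.237 for MOL1) or without cov tip array 1 (0.172 and 0.116), and that of MOL1 also without cov tip array 2 (0.193). PHV, a homeodomain regulator of vascular polarity, and CLE44, whose product equals that of CLE41, did not pass at 0.29 ± 0.17 and -0.21 ± 0.21. Neither did OPS nor LHW, regulators of phloem and of vascular cell divisions.

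The 6 tested auxin genes gave 3 higher at the base and 0 lower. HAT2, a homeodomain gene induced by auxin, had 132 and 148 at the base and 57.6 and 66.3 at the tip (1.04 ± 0.16, adjusted p = 0.000696). The Aux/IAA repressor genes IAA18, with 198 and 299 at the base and 120 and 130 at the tip, and IAA30, with 25.4 and 30.4 at the base and 6.0 and 13.5 at the tip, were each higher by 0.90. The call of IAA30 was lost without cov base array 1 (adjusted p = 0.0667), cov base array 2 (0.12) or cov tip array 1 (0.23). WES1 and GH3.3, which conjugate auxin to amino acids, and YUC2, which makes auxin, did not pass. GH3.3 differed between its base arrays, at 6.6 and 48.0, against 31.1 and 41.8 at the tip, and without cov base array 2 it was lower at the base by 1.38 (adjusted p = 0.00747).

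Of 12 tested genes of the cell cycle 6 were lower at the base, 2 were higher and 4 did not pass, with a median of -0.81, against 15.8% lower and 15.4% higher over all tested probe sets. The higher count was 1 when cov base array 2 was omitted and 0 for cov tip array 1. AUR1 and AUR3, mitotic Aurora kinases, differed by -1.47 ± 0.19 (adjusted p = 0.000177) and -0.91 ± 0.21. PRL (PROLIFERA), a subunit of the replication helicase, had 46.1 and 55.7 at the base and 108 and 110 at the tip. POLA3, of the DNA polymerase alpha complex, had 35.7 and 47.1 at the base and 118 and 102 at the tip, and BUB3.1, of the spindle checkpoint, had 77.7 and 58.8 at the base and 138 and 133 at the tip. The 2 genes on the other side were KEU (KEULE), a vesicle fusion factor of cytokinesis that also serves secretion, and SIM, an inhibitor of cyclin-dependent kinases. KEU had 289 and 246 at the base and 141 and 166 at the tip, and the call did not hold when leaving out cov tip array 1 (adjusted p = 0.0535). SIM and AUR3 stand outside the rule for named genes and were named after their values were seen.

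Of 6 tested histone genes 4 were lower at the base and 1 higher, with a median of -1.0 that includes a linker histone. The lower count was 2 when cov tip array 1 or cov base array 1 was omitted. The H2B gene HTB1 had 86.1 and 58.8 at the base and 386 and 282 at the tip (-2.04 ± 0.21, adjusted p = 5.39e-05), and HTB2 had 53.1 and 45.0 at the base and 124 and 114 at the tip. HTB4 and HTB11 were lower by 0.77 ± 0.19 and 0.96 ± 0.24, and both calls were lost without cov tip array 1 (adjusted p = 0.0801 and 0.0678) or cov base array 1 (0.0878 and 0.0506), and that of HTB11 also without cov tip array 2 (0.0609). The 1 gene that was higher, HIS1-3, encodes a linker histone induced by drought and not a core histone. It had 158 and 125 at the base and 42.2 and 43.3 at the tip. The centromeric histone gene HTR12, at 11.8 and 24.9 at the base and 51.5 and 45.4 at the tip, did not pass (adjusted p = 0.0758). It passed when only the 4 cov arrays were fitted (adjusted p = 0.0247). It also passed with a pseudocount at the table median (0.0485) or with a replicate block (0.0493). Of 8 tubulin and actin genes 4 were lower and 1 higher, and the lower count was 2 when cov tip array 1 or cov base array 1 was omitted. TUB1 had 51.1 and 95.6 at the base and 152 and 201 at the tip, while TUB6 had 675 and 776 at the base and 425 and 369 at the tip (0.85 ± 0.17, adjusted p = 0.00282).

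Of 9 tested genes listed for anther, tapetum and pollen, 4 were lower at the base and 0 higher, and the list median was -0.17. The list held neither ATA27 (-6.43) nor genes known only by a locus number, so the median covers its named members alone. SWEET8 (RUPTURED POLLEN GRAIN1), a sugar exporter of the tapetum, had 24.6 and 33.8 at the base and 365 and 378 at the tip (-3.23 ± 0.19, adjusted p = 1.1e-06). SHT, which makes the spermidine conjugates of the pollen coat, had 4.0 and 10.5 at the base and 265 and 231 at the tip (-3.78 ± 0.25). EMS1, the receptor kinase that specifies the tapetum, had 32.7 and 24.0 at the base and 136 and 118 at the tip, and AMS, a tapetum transcription factor, had 5.4 and 10.7 at the base and 56.8 and 39.0 at the tip. The other 5, among them the meiosis genes SDS and SPO11-2, lay between -0.17 and 0.22. Of 14 sugar transporter genes named SWEET, SWEET8 included, 6 were lower at the base and 0 higher, with a median of -0.53. SAG29, also named SWEET15, was not counted here. SWEET3 had 33.7 and 29.6 at the base and 226 and 198 at the tip, SWEET10 had 17.3 and 14.4 at the base and 102 and 102 at the tip, and SWEET1 had 217 and 211 at the base and 482 and 487 at the tip. The share of buds or flower stalks in the tip samples was not tested.

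Of 10 tested regulators of meristems and organ identity 2 were lower at the base and 2 higher, near the 15.8% and 15.4% of all tested probe sets. The higher count was 1 when cov base array 1 or cov tip array 1 was omitted. YAB3, which sets the outer side of lateral organs, had 6.8 and 23.3 at the base and 123 and 88.0 at the tip (-2.18 ± 0.29, adjusted p = 0.000278). ULT1, a regulator of meristem size, had 35.5 and 35.1 at the base and 96.9 and 91.9 at the tip. AGL24, a MADS box gene of the inflorescence, had 100 and 106 at the base and 45.9 and 42.7 at the tip (1.03 ± 0.19). PTL (PETAL LOSS) was higher by 0.92 ± 0.22, a call lost without cov tip array 1 (adjusted p = 0.0757) or cov base array 1 (0.0611).

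Among wall loosening genes, XTH16 stood far apart. Xyloglucan endotransglucosylases cut and rejoin the xyloglucan of growing walls. XTH16 had 27.5 and 33.7 at the base and 597 and 560 at the tip (-3.80 ± 0.21, adjusted p = 8.39e-07), and XTH18 had 11.2 and 19.1 at the base and 53.5 and 56.0 at the tip. XTH20, XTH32 and XTH33 did not pass, with differences of -0.29, -0.11 and -0.33. Expansins, which loosen growing walls, mostly did not pass: 1 of 15 was higher and 1 lower, with a median of -0.01. The lower count was 3 when cov base array 2 was omitted, and the higher count 2 when either wild type base array was. EXPA4 had 383 and 423 at the base and 137 and 162 at the tip (1.36 ± 0.25), and EXLA2 had 24.7 and 36.8 at the base and 131 and 123 at the tip (-1.72 ± 0.22). EXPA8 had 10.8 and 101 at the base and 138 and 107 at the tip, and without cov base array 2 it was lower by 2.56 (adjusted p = 0.00013).

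Both tested genes of the cuticle and wax list were lower at the base, with 1 still called when cov tip array 2 was omitted. WSD1, a wax ester synthase of the stem, had 46.2 and 42.3 at the base and 291 and 238 at the tip (-2.29 ± 0.18, adjusted p = 8.45e-06). SHN3, a transcription factor of cuticle formation, had 43.7 and 49.5 at the base and 87.4 and 140 at the tip, a call lost without cov tip array 2 (adjusted p = 0.074). In the cold and drought list all 5 tested genes passed. COR15A and COR15B, chloroplast proteins of cold tolerance, differed by -2.42 ± 0.19 (adjusted p = 6.79e-06) and -1.38 ± 0.17, and HVA22C by -0.93 ± 0.18. COR15A had 36.2 and 40.5 at the base and 280 and 237 at the tip. The dehydrin genes LTI30 and COR47 ran the other way. LTI30 had 334 and 610 at the base and 71.1 and 78.5 at the tip (2.42 ± 0.24), and COR47 had 1095 and 1143 at the base and 571 and 663 at the tip.

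Glucosinolates are the sulfur-rich defence compounds of the cabbage family. Of 8 tested genes of their synthesis, transport and breakdown 6 were higher at the cov base and 1 lower, with a median of 1.08. BCAT4, the first enzyme of methionine chain elongation, had 3645 and 4023 at the base and 585 and 536 at the tip (2.75 ± 0.16, adjusted p = 9.56e-07). AOP3, a side chain enzyme, had 2234 and 2116 at the base and 576 and 497 at the tip (2.0 ± 0.15). UGT74B1, which adds glucose in the core pathway, had 683 and 644 at the base and 193 and 146 at the tip. The transporter genes GTR2 and GTR1 were higher by 1.3 ± 0.16 and 0.82 ± 0.18. GTR2 had 590 and 712 at the base and 249 and 264 at the tip. AOP1, a relative of AOP3, was lower at 29.5 and 33.9 against 73.7 and 107 at the tip, and PYK10, a beta-glucosidase, did not pass. GTR1 stands outside the rule for named genes and was named after its value was seen.

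Autophagy breaks down cell contents for reuse. ATG8 proteins coat the autophagosome and ATG3 attaches them to lipid. Of 10 tested ATG genes 7 were higher at the base, 0 lower and 3 did not pass, with a median of 0.57. The higher count was 3 or 4 when cov base array 1 or 2 was omitted, and 2 or 4 for cov tip array 1 or 2. ATG8F had 1246 and 1349 at the base and 637 and 687 at the tip (0.96 ± 0.16, adjusted p = 0.00102), and APG8H had 508 and 493 at the base and 256 and 291 at the tip. ATG8C, ATG8E and ATG8D were higher by 0.79 ± 0.18, 0.82 ± 0.20 and 0.57 ± 0.16. The calls of these 3 were lost without cov tip array 1 (adjusted p = 0.0779, 0.108 and 0.124). On omitting cov base array 2, ATG8C (0.0648) and ATG8D (0.0721) missed the threshold. On omitting cov base array 1, ATG8E (0.0552) and ATG8D (0.0795) did, and on omitting cov tip array 2, ATG8D (0.0924). Of 5 genes listed for senescence and nutrient recycling 3 were higher and 1 lower, counts that were 1 and 0 when cov tip array 1 was omitted. PPDK, which aids nitrogen export from ageing leaves, had 137 and 81.3 at the base and 21.9 and 42.2 at the tip (1.46 ± 0.28). The senescence regulator genes WRKY53 and WRKY6 had 543 and 110, and 81.1 and 41.7, at the base, against 42.0 and 59.3, and 13 and 11.8, at the tip. The call of WRKY53 did not hold when leaving out cov tip array 1 (adjusted p = 0.0708). That of WRKY6 was lost on omitting cov base array 1 (adjusted p = 0.0982), cov tip array 2 (0.0594) or cov tip array 1 (0.0542). SAG29, a sugar transporter also named SWEET15, was lower by 1.02 ± 0.23, a call lost without cov base array 1 (adjusted p = 0.0569) or cov tip array 1 (0.0817). SAG101 did not pass.

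In the list of vacuolar and secretory trafficking 6 of 20 genes were higher and 1 lower, 7 in all, which is near the 31.3% called over all tested probe sets. The higher count was 3 or 2 when cov base array 1 or 2 was omitted, and 1 for either cov tip array. The ESCRT-III genes VPS2.2 and VPS2.1, which act in sorting to the vacuole, moved in opposite directions. VPS2.2 had 33.0 and 42.4 at the base and 113 and 167 at the tip (-1.60 ± 0.25, adjusted p = 0.000719), and VPS2.1 had 266 and 207 at the base and 119 and 127 at the tip (0.87 ± 0.17).

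Of 22 nuclear genes of photosynthesis and chlorophyll 7 were lower at the base, 0 higher and 15 did not pass, with a median of -0.36. The lower count was 4 when cov base array 1 was omitted and 3 for either cov tip array. CHLI2, a subunit of the magnesium chelatase of chlorophyll synthesis, had 6.0 and 8.0 at the base and 93.8 and 89.5 at the tip (-2.46 ± 0.29, adjusted p = 0.000119). NOL, a chlorophyll b reductase, had 63.5 and 56.2 at the base and 147 and 144 at the tip. HEMB1, of the shared tetrapyrrole path, was lower by 0.71 ± 0.14. Of 69 genes of the chloroplast genome 17 were higher, 10 lower and 42 did not pass, with a median of 0.26, against 15.4% higher and 15.8% lower over all tested probe sets. Omitting cov tip array 1 left 7 higher and 2 lower, cov tip array 2 left 10 and 4, and cov base array 2 left 10 and 5. The lower count was 6 when cov base array 1 was omitted. The ATP synthase genes atpA and atpF had 2198 and 2929, and 701 and 862, at the base, against 1169 and 1056, and 308 and 299, at the tip. The photosystem II genes psbI and psbE were higher by 0.91 ± 0.15 and 0.74 ± 0.14, while the ribosomal protein gene rpl22 had 382 and 324 at the base and 753 and 702 at the tip (-1.02 ± 0.18, adjusted p = 0.00147).

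Of 11 beta-glucosidase genes named BGLU, 3 were higher and 2 lower at the base, the lower count being 1 when cov tip array 1 was omitted. The beta-glucosidase genes ATA27 and PYK10, which go by other names, were not counted. BGLU33 had 620 and 502 at the base and 105 and 142 at the tip (2.09 ± 0.19), and BGLU25 had 95.1 and 115 at the base and 640 and 458 at the tip (-2.25 ± 0.18). Of 11 cytochrome P450 genes 6 were higher and 0 lower, with a median of 0.60, and the count was 3 when cov tip array 2 was omitted. CYP78A9, known for effects on fruit and seed growth, had 145 and 87.7 at the base and 6.4 and 11.2 at the tip, and CYP71B23 had 420 and 298 at the base and 54.6 and 48.6 at the tip. Of 18 serine carboxypeptidase-like genes 2 were higher, scpl31 and SCPL45, and 6 were lower, led by scpl25 with 76.6 and 84.3 at the base and 327 and 289 at the tip (-1.79 ± 0.15). Of 9 bZIP transcription factor genes 4 were higher and 0 lower, against 15.4% higher over all tested probe sets, and the count was 2 when cov base array 1, cov tip array 1 or cov tip array 2 was omitted. The largest change was in bZIP42, with 99.9 and 263 at the base and 31.6 and 39.3 at the tip. Of 6 defence genes 3 were higher and 0 lower, a count that was 1 when cov tip array 1 was omitted. Among them was CHI, annotated as a chitinase, with 410 and 316 at the base and 60.7 and 99.3 at the tip (2.05 ± 0.26, adjusted p = 0.00017). BIK1, a kinase of immune signalling, was higher by 0.88 ± 0.21, a call lost without cov tip array 1 (adjusted p = 0.0896) or cov base array 1 (0.0742).

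The change along the stem in cov was set beside that in wild type, which shares no array with it. In wild type 3510 probe sets were higher and 3881 lower at the base, together 46.4% of those tested. Of the calls in cov, 2112 were also called higher and 2264 called lower in wild type, and 11 were called in opposite directions. Across the 15923 tested probe sets the 2 changes correlated at r = 0.884, a description across probe sets, which are not independent. The standard deviation of the change was 0.818 in cov and 1.11 in wild type, on the log2 scale. The difference between the changes was itself called for 342 probe sets (2.15%), 176 positive and 166 negative. In 308 of these the cov change was the smaller in size, and in 34 the larger. Of the 342, 263 were also called along the cov stem and 79 were not. Omitting 1 of the cov tip arrays left 145 (array 1) or 111 (array 2). Omitting 1 of the cov base arrays left 204 (array 2) or gave 465 (array 1), of which 270 were among the 342. Among wild type arrays, omitting 1 from the base left 142 (array 1) or 212 (array 2), and omitting 1 from the tip left 164 (array 1) or 198 (array 2).

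**Figure D4:**
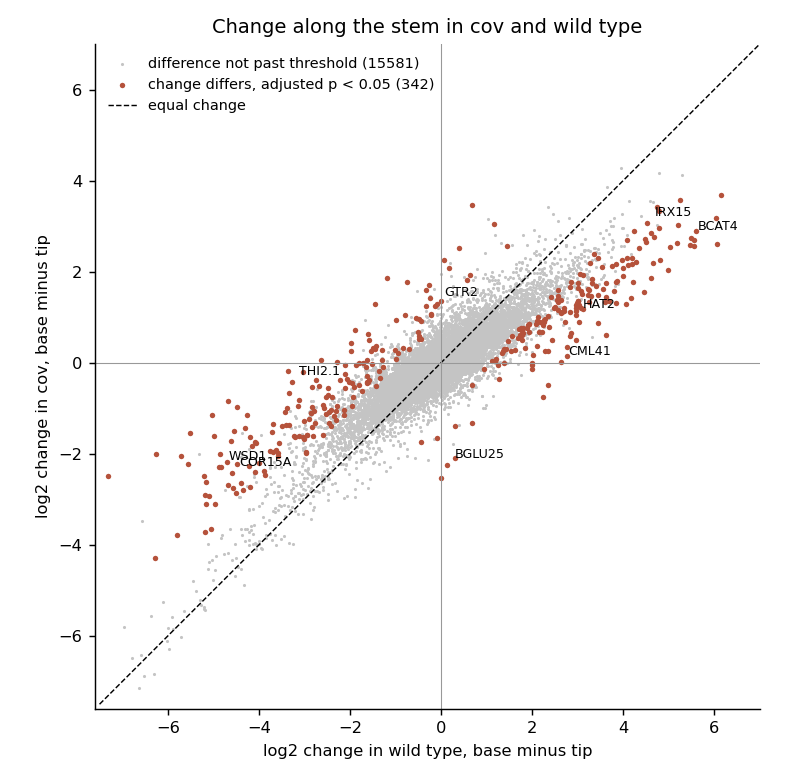
Log2 difference of base minus tip in cov (y axis) against that in wild type (x axis) for all 15923 tested probe sets. The 342 coloured points passed the test of the difference between the changes and the dashed line marks equal change. Most coloured points lie between the dashed line and the horizontal line at 0, where cov changed less than wild type.

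Several genes kept their direction in cov with a smaller change. BCAT4 differed by 2.75 in cov and by 5.49 in wild type (difference -2.74, adjusted p = 0.000834), with wild type signals of 2652 and 2346 at the base and 37.7 and 51.0 at the tip. HAT2 differed by 1.04 in cov and 2.96 in wild type (difference -1.92, adjusted p = 0.0023), and BGLU45 by 1.61 in cov and 3.55 in wild type (difference -1.94, adjusted p = 0.00456). On the tip side, COR15A differed by -2.42 in cov and -4.59 in wild type (difference 2.16, adjusted p = 0.00285), and WSD1 by -2.29 in cov and -4.83 in wild type (difference 2.53, adjusted p = 0.00164). For COR15A the base signal was 36.2 and 40.5 in cov against 1.9 and 2.7 in wild type, while the tip signal was 280 and 237 in cov against 287 and 374 in wild type. IRX15 differed by 3.07 in cov and 4.53 in wild type (difference -1.46, adjusted p = 0.0364), a call lost without any 1 of 7 arrays, with adjusted p up to 0.138 without wild type base array 1. IRX15-L and GUT2 had differences of -1.09 and -0.85 that did not pass (adjusted p = 0.0539 and 0.183).

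A few genes were called along the stem in cov or in wild type but not in both, with a called difference between the changes. BGLU25 was lower at the cov base by 2.25, while in wild type it had 96.7 and 104 at the base and 89.1 and 91.0 at the tip (difference -2.39, adjusted p = 0.00171). GTR2 was higher at the cov base by 1.3, while in wild type it had 181 and 218 at the base and 226 and 197 at the tip (difference 1.38, adjusted p = 0.0132). The difference of GTR2 was not called on omitting wild type base array 1 (adjusted p = 0.0574) or tip array 1 (0.0523), nor on omitting either cov tip array (0.0666 for array 1, 0.0602 for array 2). CML41, of the calmodulin-like family, was the reverse case. It had 91.7 and 52.8 at the cov base and 66.9 and 70.6 at the cov tip, a difference of 0.02 ± 0.26, against 2.64 in wild type (difference -2.62, adjusted p = 0.00624). THI2.1, a thionin of defence, had 284 and 168 at the cov base and 230 and 382 at the cov tip, while in wild type the difference was -3.28. Its difference of 2.86 (adjusted p = 0.0305) was not called on omitting wild type base array 1 (adjusted p = 0.12), cov tip array 1 (0.109), wild type tip array 2 (0.0898), cov base array 1 (0.0569) or cov tip array 2 (0.0505). Of the 11 probe sets called in opposite directions 2 have 1 gene, AT1G22690, at 1.05 in cov and -0.80 in wild type, and AT3G51000, at -0.49 in cov and 0.69 in wild type. These 2 were named after their values were seen.

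**Figure D5:**
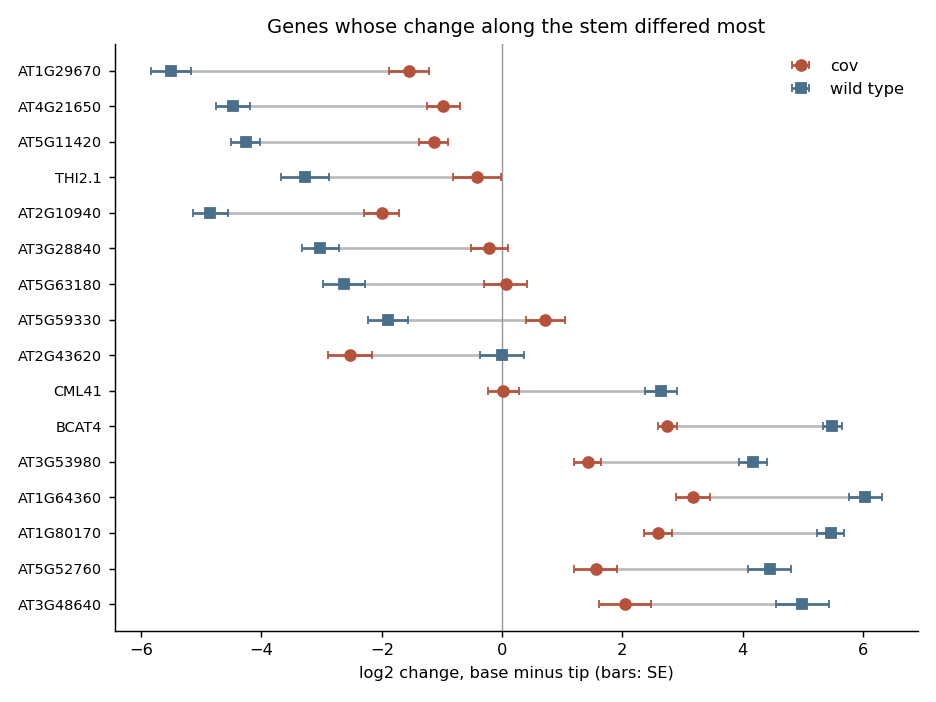
Log2 difference of base minus tip (x axis, bars are standard errors) in cov (circles) and wild type (squares) for the 8 highest and the 8 lowest differences between the changes. In all but AT2G43620 the cov point lies nearer to 0 than the wild type point.

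The anther and cell cycle lists gave 0 called differences between cov and wild type. SWEET8 differed by -3.23 in cov and -3.32 in wild type, SHT by -3.78 in cov and -3.85 in wild type, and AUR1 by -1.47 in cov and -1.49 in wild type. A difference that misses the threshold does not show that the changes were equal: the 95% limits of the difference were -0.51 to 0.68 for SWEET8 and -0.56 to 0.60 for AUR1.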

How the data were processed

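Affymetrix ATH1 arrays were analysed from the table the authors deposited, which holds 1 intensity per probe set and array, a linear MAS5 signal per the submitters' processing notes. The mean of each array after trimming 2% of the values at each end was 100, and the sources used here give no MAS5 version and no detection calls. Arrays were grouped by their titles. After 64 control probe sets were removed, 15923 of 22746 with a mean signal of at least 21.36 (the 30th percentile over all arrays) were tested and 6823 left out. Signals were analysed as log2(signal + 11.85), with a pseudocount of 0.25 times the table's median of 47.4, so folds of dim genes are understated. limma 3.58.1 (R 4.3.3) fitted 4 group means to all 8 arrays with a variance trend (4 residual degrees of freedom, 2-sided, Benjamini-Hochberg over all tested probe sets, threshold 0.05), and the script was tested on simulated data. Errors are standard errors on the log2 scale. The number of arrays limits the precision.

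Of 13513 probe sets with 1 gene, 13436 matched RefSeq's TAIR10.1 gene table, from which names were taken, and 77 kept the platform's name. For 503 probe sets with several genes and for those with none no gene was named. A gene is given by its brightest probe set. Genes with neither a name nor a named synonym were left out of the lists, except that of the chloroplast genome. Genes named are the 15 highest and 15 lowest changes, the 8 highest and 8 lowest differences between cov and wild type, the members of each list with the smallest p (at most 5), every member of lists of 6 or fewer, plus the 20 highest and 20 lowest genes with a name. The members and lists were chosen with earlier results of these data known, and this last set and the primary wall, SBT and LCR lists were added after the values were seen. Alternatives changed the pseudocount, filter, normalization, variance model, arrays fitted and replicate block. Promoter and protein sequences were not used here.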

Additional observations from a re-analysis of the deposited data

Results flagged for a closer look

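The test of the difference between the base minus tip change in cov and that in wild type passed for 342 of the 15923 tested probe sets, and every value below is that difference on the log2 scale (cov change minus wild type change, limma adjusted p under 0.05). Positive values among the named genes were 3.96 for AT1G29670, 3.5 for AT4G21650, 3.13 for AT5G11420, 2.86 for THI2.1, 2.85 for AT2G10940, 2.81 for AT3G28840, 2.68 for AT5G63180, 2.61 for AT5G59330, 2.53 for WSD1, 2.16 for COR15A, 2.11 for COR15B, 1.72 for SHN3, 1.41 for LCR69 and 1.38 for GTR2. Negative values of 2 or more in size were -2.94 for AT3G48640, -2.89 for AT5G52760, -2.87 for AT1G80170, -2.86 for AT1G64360, -2.75 for AT3G53980, -2.74 for BCAT4, -2.62 for CML41, -2.53 for AT2G43620, -2.46 for AT1G22480 and -2.39 for BGLU25. Smaller negative values were -1.99 for XTH18, -1.94 for BGLU45, -1.92 for HAT2, -1.82 for CYP71B23, -1.66 for AT3G23090 (WDL3), -1.66 for RING1, -1.64 for AT5G64120 (PRX71), -1.46 for IRX15, -1.42 for bZIP58, -1.34 for PME61, -1.33 for AT4G28380, -0.97 for APS4 and -0.97 for psbE.

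Of these 37 genes 19 were called without any single array. For the others the highest adjusted p was 0.251 for APS4, 0.184 for AT3G23090, 0.148 for AT2G43620, 0.143 for AT4G28380, 0.0938 for AT5G59330, 0.0609 for LCR69, 0.0669 for PME61, 0.169 for XTH18 and 0.188 for psbE, each without cov tip array 2. It was 0.12 for AT5G64120, 0.0666 for GTR2, 0.106 for SHN3 and 0.115 for bZIP58 without cov tip array 1, 0.161 for AT3G48640, 0.0905 for AT5G52760, 0.138 for IRX15 and 0.12 for THI2.1 without wild type base array 1, and 0.0911 for AT5G63180 without wild type tip array 1.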

How the results depend on the processing

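With 2 arrays a group, the counts depended most on single arrays. The cov counts fell without any 1 of the cov base or tip arrays. Leaving out each array in turn gave 1380 to 2510 probe sets higher and 1490 to 2594 lower at the cov base, with 1380 and 1490 without cov tip array 1 and 1617 and 1646 without cov tip array 2. It gave 2921 to 3538 higher and 3082 to 3896 lower at the wild type base. For the difference between the changes it gave 60 to 236 positive and 51 to 229 negative, against 176 and 166 with all arrays. The cov and wild type counts stayed within 1.5 times of their values under every other alternative run. Median centring gave 3863 higher and 3502 lower at the wild type base, so the larger side changed. In cov, where the sides were nearly equal at 2455 higher and 2523 lower, the larger side changed too. It gave 2478 higher and 2473 lower there, and a filter at the median of mean signals gave 2254 and 2148. The count of called differences between the changes did not stay within 1.5 times of its value. Without the filter on dim probe sets, which tests more probe sets, it was 66 positive and 73 negative. Without the variance trend it was 116 positive. The replicate numbers were not taken as pairing the samples, since no label says that a number marks shared plants. For the arrays numbered 1, the deviations from the group means were correlated between base and tip across probe sets. This correlation was -0.043 in cov and 0.088 in wild type. With 2 arrays a group it cannot show whether the samples were paired. With the replicate number as a block the difference was called for 105 positive and 95 negative, and the cov change for 2354 higher and 2414 lower. The block ended the cov call of MOL1 (adjusted p = 0.0596) and 8 of the 37 named differences. Dropping the filter on dim probe sets ended 15 of the 37, more than any other change of processing.

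Of 200 named genes 170 were called in cov, and 133 of these were called under every alternative that tested them. Signs changed only in genes that did not pass in cov. Over the omissions of 1 array, AT2G41480 ranged over -0.70 to 0.83, AT3G28840 over -0.48 to 0.06, AT5G63180 over -0.43 to 0.55, CML41 over -0.32 to 0.36, CSLC12 over -0.17 to 0.19, GH3.3 over -1.38 to 0.32 and LCR72 over -0.68 to 0.87. CSLD2 ranged over -0.12 to 0.11. SAG101 ranged over -0.20 to 0.15, SWEET13 over -0.38 to 0.05, XTH32 over -0.32 to 0.10, XTH33 over -0.90 to 0.24 and YUC2 over -0.50 to 0.14. A pseudocount of 1 gave -0.09 for AT2G41480, one at the table median -0.00 for LCR72, quantile normalization 0.05 for SAG101 and median centring 0.00 for CSLD2. The cause of these changes was not tested. Dim signals limit the folds of genes near background, since no detection calls were used here.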

Other observations

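A pair of small families, added after their values were seen, had the lowest medians of the lists described along the cov stem. Subtilases, secreted proteases of the SBT family, gave 3 of 4 lower at the base and 1 higher, with a median of -2.0. SBT1.3 had 74.3 and 62.0 at the base and 831 and 678 at the tip (-3.26 ± 0.19), and SBT5.4 had 28.4 and 20.9 at the base and 72.8 and 96.0 at the tip. SBT4.13 had 1.3 and 0.7 at the base and 26.6 and 149 at the tip. SBT3.12 had 102 and 114 at the base and 49.1 and 71.9 at the tip, and the call did not hold when leaving out cov tip array 1 (adjusted p = 0.184) or cov base array 2 (0.0849). In the LCR family of small cysteine-rich peptides 3 of 4 genes were lower at the base and 0 higher, with a median of -2.56. LCR68 had 326 and 321 at the base and 1512 and 1536 at the tip (-2.19 ± 0.15), and LCR66 had 4.6 and 3.8 at the base and 134 and 88.8 at the tip. LCR72, with 9.8 and 21.6 at the base and 2.9 and 31.2 at the tip, did not pass.

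Replicate arrays differed by 2-fold or more at 439 probe sets (2.76%) in cov base, 109 (0.685%) in cov tip, 320 (2.01%) in wild type base and 244 (1.53%) in wild type tip. Of the 439 in cov base, 273 were higher on array 1, and 164 were called along the cov stem. Of the 109 in cov tip 40 were called. Over all tested probe sets 31.3% were called.

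Among 2900 pairs of tested genes that are neighbours on a chromosome, both genes were called in 279. Of these, 72 were both higher at the cov base, 86 both lower and 121 opposite, so that 56.6% shared a direction. Over all 8456 genes placed in order, 1175 were called higher and 1249 lower, so unrelated called genes would also often share a direction. Whether neighbours did so more often was not tested. Pairs that were each 4-fold or more lower numbered 2, AT4G24130 with AT4G24140 and AT5G45950 with AT5G45960, and 0 pairs were each 4-fold or more higher. Neighbouring genes can share probes or overlap, which was not tested.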
